A study of Mus musculus with 31 samples.

Results

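Elavl4, Uchl1, Ret, Nos1, Vip, Sox10, S100b and Gfap are 8 genes of the enteric nervous system, and their mRNA was followed here over all arrays of a mouse colon series. They were found by the gene name printed in the array files, which gave 13 of the 56605 probes on the array. All 13 probes passed the filter on dim signals, so the 8 genes stand among 19797 genes that were tested. The tissue was distal colon of young BALB/c mice of an inbred strain. All mice, the controls included, had an injection of azoxymethane (AOM), a colon carcinogen, a week before the start, and dextran sodium sulphate (DSS), which damages the colon lining, in the drinking water over the first days. The CRC group was gavaged with water only, and the CRC + E171 group with 5 mg/kg bw/day of E171, the food additive titanium dioxide, in water. Mice were sampled after 2, 7, 14 and 21 days, which makes 8 groups of 4 arrays (2 males and 2 females), except CRC 21 days with 3 (1 male and 2 females). No mice without AOM and DSS were analysed here, so each level below is a level in AOM/DSS colon.

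The enteric nervous system is a network of neurons and glia that lies between the muscle layers and under the mucosa of the gut. Its neurons control peristalsis, secretion and local blood flow without input from the brain, and its glia support neurons and touch epithelial and immune cells. Both cell types arise from neural crest cells that migrate along the gut, a step that needs the receptor Ret and the transcription factor Sox10. Elavl4 (HuD) is a neuronal RNA-binding protein, and Uchl1 (PGP9.5) is a deubiquitinating enzyme that is abundant in neurons. Nos1 makes nitric oxide and Vip is a relaxing neuropeptide, and both are used by inhibitory motor neurons. S100b, a calcium-binding protein, and Gfap, an intermediate filament, are used with Sox10 as markers of glia.

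Each array reads a gene by probes of 60 bases. The probes below are shown because the text returns to the gene they read. Both come from the array files, in 5′ to 3′ order and on build mm9, with no part marked.
Elavl4 A_51_P503729, chr4:109884183-109884242, minus strand: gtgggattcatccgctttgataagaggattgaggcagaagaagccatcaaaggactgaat
Nos1 A_55_P2133795, chr5:118402831-118402890, plus strand: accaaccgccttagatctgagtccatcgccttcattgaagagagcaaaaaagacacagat

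This Nos1 probe reads the RefSeq transcript of the gene. A second Nos1 probe, A_55_P2073915, lies at chr5:118404306-118404365 on the same strand and is assigned by the array to the transcript ENSMUST00000086451. Uchl1 has a probe on its RefSeq transcript, A_55_P2738927 at chr5:67078408-67078467, and a probe on the transcript ENSMUST00000177194, A_55_P2721995 at chr5:67067805-67067864. Gfap has a probe for each of 2 RefSeq transcripts, at chr11:102751813-102751872 and chr11:102748864-102748923. Elavl4 has 2 more probes, at chr4:109877455-109877514 and chr4:109924067-109924126. Ret is read at chr6:118101791-118101850, Sox10 at chr15:78985343-78985402, S100b at chr10:75723783-75723842 and Vip by a probe that spans an intron between chr10:4699681 and chr10:4701551. The exon or UTR of the probes was not assigned, as no mm9 annotation was used here.

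Vip had the widest range of the 8 genes between arrays, and the bases before its start are shown for that reason. The top of this range rests on 1 array, CRC 7 days male 2, at a log2 signal of 3.30 with 1.48 as the next highest. By SD over arrays Gfap (0.87) varied more than Vip (0.83). The RefSeq promoter table (GRCm38.p6) gives 9 start sites for 6 of the 8 genes, with Ret and Sox10 not listed. The 250 bases before the start of Vip (chr10:5638968-5639217, plus strand) hold the core of a cyclic AMP response element, TGACGTC, in capitals, and its first base lies 79 bases before the start.
Vip upstream: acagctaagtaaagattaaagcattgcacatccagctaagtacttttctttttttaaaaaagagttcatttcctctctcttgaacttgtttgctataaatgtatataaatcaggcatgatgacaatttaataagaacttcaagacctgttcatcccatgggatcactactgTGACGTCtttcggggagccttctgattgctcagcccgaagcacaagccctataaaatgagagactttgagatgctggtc

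TGACGTC was searched on both strands and stood in 2.78% of 32851 promoters of that length, and among the members' 9 only in Vip. A pair of short SOX motifs was searched in the same way, ACAATG (3512 of the 32851 promoters, and 1 of the 9, in Elavl4) and ACAAAG (16.5% of promoters, and 0 of the 9). These matches describe letters and were not tested for any function.

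Many arrays carried markers of other tissues, and this touches every comparison below. A list's value on an array is the median of its genes after each gene's mean over the 31 arrays was subtracted, on the log2 scale. The pancreatic acinar list (8 genes tested) stood at 5.55 to 9.93 on 5 arrays and at -2.86 to 0.39 on the other 26. A squamous epithelium list (6 genes tested) stood at 1.70 to 7.75 on 6 arrays and at -1.94 to -0.12 on the other 25. The posterior Hox list, which marks the distal gut, stood at -5.66 to -4.32 on 3 CRC + E171 arrays of female mice, 1 after 7 days and 2 after 14 days. These are 14 arrays in all, 4 of them the whole CRC 7 days group. Their part in the members' levels was not tested. Where a gene's call named below ended without them, the value is given beside it, except for comparisons with CRC 7 days, which cannot be fitted without them, and for Penk, Slc5a7 and Htr3a between the sexes, for which this was not computed. Xist, a gene of the inactive X chromosome, was at -1.60 on the array labelled CRC 14 days male 2 against -8.51 to -6.53 on the other male arrays and -2.34 to -0.70 on female arrays, so this array goes against its label. The arrays measured whole tissue, where fewer cells of a type and less RNA per cell cannot be told apart.

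The members were measured as log2 signal relative to the 75th percentile of the same array, and levels of different genes are not compared on this scale. Over the 31 arrays, Vip spanned 3.96 log2 units, Gfap 3.57, S100b 3.12, Elavl4 3.05, Ret 2.82, Sox10 2.50, Uchl1 2.38 and Nos1 2.33, against a median of 2.04 over all genes. The share of variance between groups was 12.3% for Sox10, 16.3% for Uchl1, 17.2% for S100b, 17.5% for Vip, 21.5% for Elavl4, 25.5% for Ret, 31.7% for Gfap and 49.0% for Nos1, with a median of 29.5% over all genes. These shares are not adjusted for the number of groups, so part of each arises without any difference between groups. When the 8 groups were ordered by their mean, all 56 neighbouring pairs of groups over the 8 genes overlapped in their arrays. Such an order puts groups with close means side by side, with gaps of at most 0.58. Overlap of neighbours was thus likely beforehand, and the count does not compare groups farther apart.

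**Figure D1:**
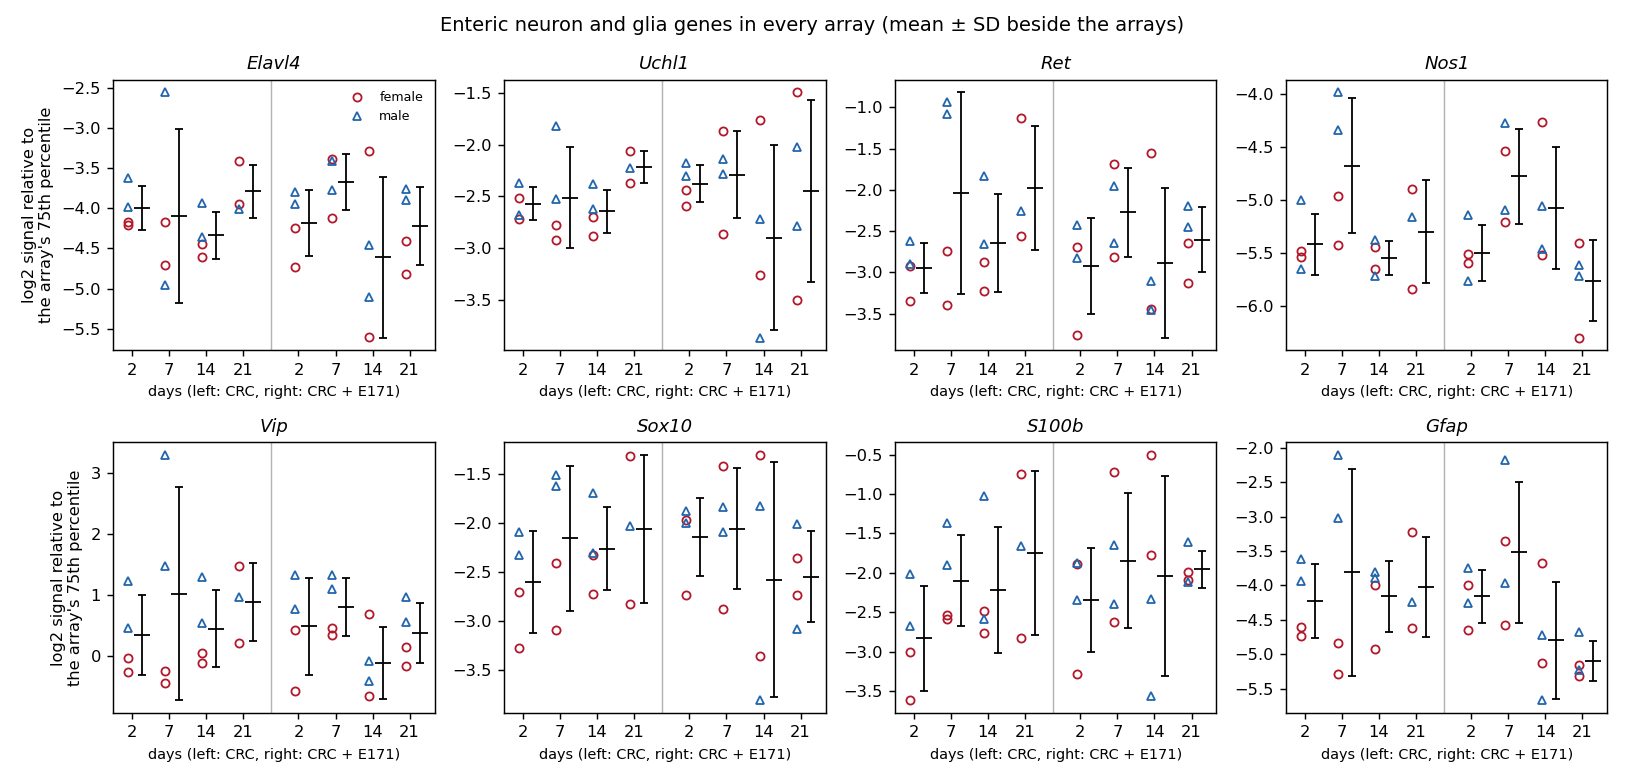
Log2 signal (y axis, relative to the 75th percentile of each array) of the 8 genes in all 31 arrays, by days (x axis) in CRC at left and CRC + E171 at right of each panel. Circles are female and triangles male mice, and the bar beside them is the group mean ± SD (n = 4, or 3 in CRC 21 days). Vip in CRC 7 days runs from -0.45 to 3.30, and Gfap in CRC + E171 21 days lies below Gfap in CRC 21 days.

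The first question of the design was whether E171 changed gene expression in AOM/DSS colon at the same day. A gene was counted as a DEG with a fold change of 1.5 or more either way and a limma p under 0.05, and adjusted p-values are Benjamini-Hochberg over all 19797 genes. None of the 8 genes was a DEG after 2, 7, 14 or 21 days. The CRC and CRC + E171 arrays of a day lay on different slides, so these differences cannot be told apart from slide differences. The same holds for the days within an arm. Among all genes the rule called 1.72% after 2 days. This share was 12.4% in the 7-day comparison, 6.34% in the 14-day comparison and 2.67% in the 21-day comparison. No gene of the array had an adjusted p under 0.05 at a single day, where 541, 3327, 1580 and 1149 genes had an unadjusted p under 0.05.

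Gfap had the widest difference of the 8 genes, after 21 days of exposure. Its level was -5.15 and -5.32 in the female and -5.23 and -4.67 in the male CRC + E171 mice, against -3.22, -4.62 and -4.24 in CRC female 1, female 2 and male 1. All CRC + E171 arrays were below all CRC arrays, with a mean of -5.09 ± 0.29 (SD, n = 4) against -4.03 ± 0.72 (SD, n = 3). The log2 fold change was -1.07 (SE 0.60, 2.10-fold lower), which was not a DEG (limma adjusted p = 0.885). A two-sided exact permutation test of these arrays gave p = 0.0286, the smallest that 4 against 3 arrays allow, before any adjustment for the other members and days. The difference became a DEG by that rule with the labelled sex as a covariate, with a block of labelled sex and replicate number, with only the brightest probe, or with only the 2 groups in the fit. It was -0.78 with the smooth muscle level as a covariate, -0.67 without CRC 21 days female 1 and -0.52 without the arrays that stand apart, none of them DEG.

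Ret, Vip and Sox10 were also lower after 21 days, by log2 fold changes of -0.62 (SE 0.53), -0.51 (SE 0.63) and -0.49 (SE 0.50), none past the threshold. All 8 genes had a negative log2 fold change at that day, with a median of -0.48 beside 0.02 over all genes tested. The smooth muscle list had a median of -0.51 in the same comparison. Its value was -0.40 to 0.38 in the CRC + E171 arrays and -0.53 to 1.30 in the CRC arrays. After 2 days the median of the 8 genes was 0.10, after 7 days 0.16 and after 14 days -0.26, with 6, 5 and 2 of the 8 genes higher in CRC + E171.

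Averaged over the 4 days, the interval of the E171 difference held 0 for every member. It was -0.34 for Gfap (95% interval -0.93 to 0.25), -0.29 for Vip (-0.90 to 0.32), -0.27 for Ret (-0.78 to 0.24) and -0.12 for Elavl4 (-0.56 to 0.33). Sox10 stood at -0.06 (-0.55 to 0.43), Nos1 at -0.04 (-0.36 to 0.27), Uchl1 at -0.02 (-0.40 to 0.36) and S100b at 0.18 (-0.40 to 0.75). None was a DEG, where the rule called 1.79% of all genes and an adjusted p under 0.05 called 0.00505% of them, which is 1 gene. The moderated F test for a difference of the E171 effect between days gave 0% of genes with an adjusted p under 0.05, although 1290 had an unadjusted p under 0.05, and the members' unadjusted p lay between 0.227 for Nos1 and 0.862 for S100b.

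The second question was how the genes changed over the days, first within CRC. Nos1, the neuronal nitric oxide synthase, was the only member called, and it was up-regulated after 7 days. Its level was -5.54, -5.48, -5.00 and -5.65 after 2 days in female 1, female 2, male 1 and male 2. After 7 days it was -5.42 and -4.96 in the females and -4.34 and -3.98 in the males, so that 3 of the 4 arrays stood above every 2-day array and female 1 lay among them. The log2 fold change was 0.74 (SE 0.30, limma adjusted p = 0.224, two-sided exact permutation p = 0.0571), where 13.4% of all genes were DEG in this comparison. It was no longer a DEG with normexp background correction (0.51) or array weights, nor without CRC 7 days male 1, CRC 7 days male 2 or CRC 2 days male 2. Of these arrays the first had a skeletal muscle list value of 7.37 and an epithelium list value of -3.22. No value without the arrays that stand apart exists, since all CRC 7 days arrays are among them.

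Ret and S100b had higher means after 7 and 21 days than after 2 days of CRC without passing the threshold. Ret was 0.91 higher after 7 days (SE 0.49, limma adjusted p = 0.338), with -1.08 and -0.93 in the males and -2.74 and -3.39 in the females of that group. Over 20 alternatives this difference ran from 0.07 to 1.36 and was a DEG in 3. After 21 days Ret was 0.96 higher and S100b 1.08 higher (SE 0.53 and 0.59, limma adjusted p = 0.927 for both). The Ret levels were -1.13, -2.56 and -2.25 at 21 days and -3.35 to -2.62 at 2 days, and these groups did not overlap. A two-sided exact permutation test gave p = 0.0286 for Ret, the smallest possible with 3 against 4 arrays. CRC 21 days female 1, the highest array of its group for both genes, also held the highest smooth muscle list value of the series, 1.30, and a squamous list value of 7.20. Among all genes 3.59% were DEG after 21 days and 2.55% after 14 days, when no member was called. Without CRC 21 days female 2 both genes were DEG, at 1.25 and 1.63, and without female 1 they were 0.54 and 0.59 and not DEG.

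Within CRC + E171, Nos1 was again the only member called after 7 days, at 0.72 above 2 days (SE 0.30, limma adjusted p = 0.9999, two-sided exact permutation p = 0.0571), where 3.27% of all genes were DEG. Its levels were -5.21, -4.54, -5.09 and -4.27 in female 1, female 2, male 1 and male 2, against -5.76 to -5.14 after 2 days. It was no longer a DEG without the arrays that stand apart (0.47), nor without 7 days male 2, 7 days female 2 or 2 days male 2. No member was called after 14 days, when 9.64% of genes were DEG, or after 21 days, with 7.39%. Gfap was 0.93 lower after 21 days than after 2 days (SE 0.56, limma adjusted p = 0.474), and here the 4 arrays of 21 days, -5.32 to -4.67, lay below the -4.65 to -3.74 of 2 days (two-sided exact permutation p = 0.0286, the smallest possible). The F test over days had 0% of genes with an adjusted p under 0.05 in CRC and 0% in CRC + E171, with 1957 and 2884 genes at an unadjusted p under 0.05. Nos1 had an unadjusted F test p of 0.0365 in CRC and 0.0150 in CRC + E171, and Gfap 0.0423 in CRC + E171.

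The 14-day CRC + E171 arrays lay far apart. Female 2 of this group held Sox10 at -1.31 and S100b at -0.50, the highest of the series, with Ret at -1.55 and Elavl4 at -3.28. Male 1 held Sox10 at -3.81 and Gfap at -5.67, the lowest of all 31 arrays, with S100b at -3.56. Female 1 and female 2 both had a low posterior Hox list and male 2 had the squamous list at 7.00. Without the 14 arrays that stand apart this group is 1 array, male 1, whose spread is then taken from the other groups, and Sox10 was 1.54 lower than in CRC 14 days and was a DEG (limma adjusted p = 0.189).

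Females and males were compared over all groups, and 2 members were called, Vip and Gfap. Vip, the vasoactive intestinal peptide, was lower in females in 7 of 8 groups, and in 6 of these every female array was below every male array. After 2 days of CRC it was -0.03 and -0.26 in females and 1.22 and 0.46 in males. After 7 days of CRC it was -0.45 and -0.25 in females and 1.47 and 3.30 in males, the latter on CRC 7 days male 2 and the highest Vip of the series. After 14 days of CRC it was -0.11 and 0.05 against 0.54 and 1.30. The 1.30 is from male 2, whose Xist goes against its label, and this group counts among the 6 only with the sex as labelled. In CRC 21 days the females stood at 1.48 and 0.21, around the single male at 0.96.

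The E171 arrays showed the same order for Vip at 3 of 4 days. Females stood at 0.42 and -0.58 after 2 days, 0.34 and 0.45 after 7 days and -0.16 and 0.14 after 21 days. The males of these groups stood at 0.77 and 1.32, at 1.09 and 1.33 and at 0.56 and 0.97. After 14 days the females were at -0.66 and 0.69 and the males between them, at -0.42 and -0.09. Over all groups, Vip was 0.94 lower in females on the log2 scale (SE 0.24, 1.92-fold, limma adjusted p = 0.174). The call held in all 42 alternatives, with log2 differences between -1.06 and -0.68 and adjusted p between 0.0698 and 0.384. Without the arrays that stand apart it was -0.90 (limma adjusted p = 0.146), and without CRC 14 days male 2, whose Xist goes against its label, also -0.90 (limma adjusted p = 0.253).

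Gfap was the other member called, 0.59 lower in females (SE 0.27, limma adjusted p = 0.533), at the edge of the fold threshold. It held in 22 of 42 alternatives and was -0.45 with the smooth muscle level as a covariate, where it was no DEG. Ret was 0.43 lower (SE 0.24), Sox10 0.34 lower (SE 0.23), Elavl4 0.32 lower (SE 0.21), Nos1 0.19 lower (SE 0.15), S100b 0.17 lower (SE 0.28) and Uchl1 0.10 lower (SE 0.19), none of them DEG. Without the arrays that stand apart 4 members were called, with S100b at -0.60 and Sox10 at -0.59 beside Vip and Gfap. The share of all genes called without these arrays is not given here, so this rise is not a result about the members. In the fit of all arrays the rule called 2.98% of all genes between the sexes, and 0.0556% had an adjusted p under 0.05. The smooth muscle list had a median of -0.29 in this comparison, lower in females in all 12 of its genes and a DEG in none. Other tissue lists had medians of -1.05 for posterior Hox (0 of 6 genes called), -0.96 for neutrophil (1 of 7), -0.57 for squamous (0 of 6), -0.48 for fibroblast (1 of 7), 0.37 for epithelium (1 of 8), 0.86 for pancreatic acinar (0 of 8) and 1.04 for adipocyte genes (0 of 7), and their part in the Vip difference was not tested.

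**Figure D2:**
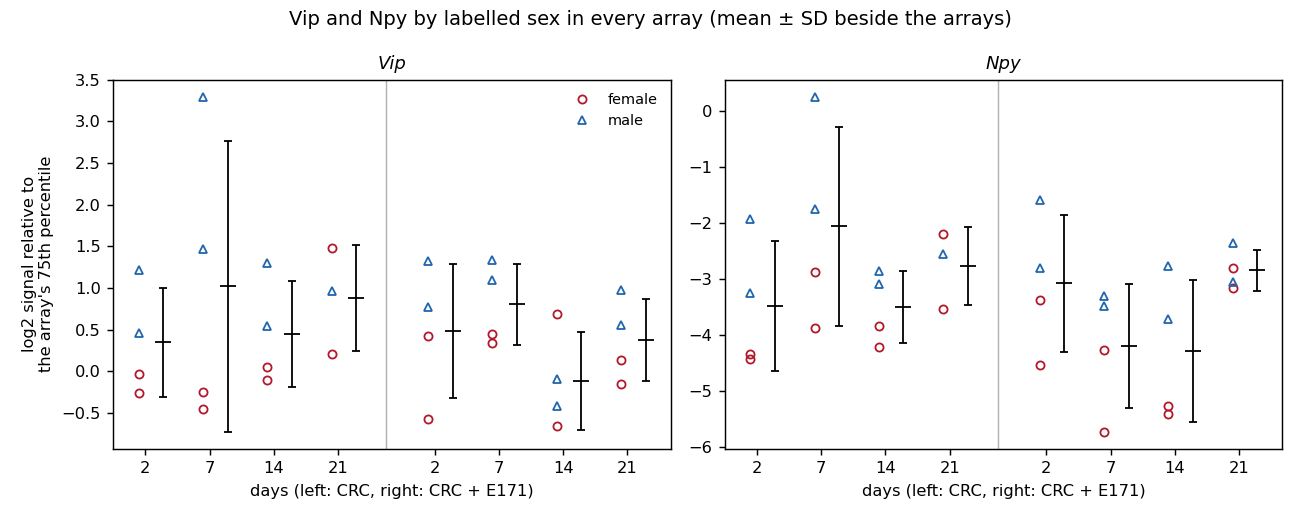
Log2 signal (y axis, relative to the 75th percentile of each array) of Vip and of Npy in all 31 arrays by days (x axis), CRC at left and CRC + E171 at right of each panel. Circles are female and triangles male mice with the group mean ± SD beside them, and all Vip circles lie below all triangles in 6 of the 8 groups.

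Npy, a neuropeptide of enteric and sympathetic neurons, was the gene of the enteric neuron list with the widest sex difference. It was 1.49 lower in females (SE 0.26, limma adjusted p = 0.0127), lower in 8 of 8 groups and with no overlap in 6, among them CRC 14 days with the sex as labelled. The female arrays ran from -5.73 over a median of -4.05 to -2.19, and the males from -3.71 over -2.81 to 0.26. All 42 alternatives kept the call, and the adjusted p ran from 0.00512 to 0.163, the latter without the arrays that stand apart. It was -1.50 without CRC 14 days male 2 (limma adjusted p = 0.0247). Of the 50 tested genes of the list, 7 were lower in females and 0 higher by the DEG rule, beside 2.98% of all genes in either direction. Beside Npy these were Cartpt, Elavl2, Nefl, Penk, Slc5a7 and Htr3a, at -0.86 to -0.59. Elavl2 (-0.07) and Nefl (-0.51) were no DEG without the arrays that stand apart. Over all alternatives run, Elavl2 held in 34 of 42 and Nefl in 36 of 42. The call of Cartpt held in 30 of 42, with values from -1.04 to -0.37, and ended with array weights, with the smooth muscle covariate or without any of 10 single arrays.

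As averages of their probes, the 8 genes went up and down together from array to array, and for Nos1 this depended on the probe, as given below. All 28 pairs had a positive correlation over the 31 arrays, from 0.34 for Elavl4 with S100b to 0.83 for Ret with Vip, with a median of 0.61. Each gene's median correlation with all other genes of the array lay between -0.06 and 0.04. By a two-sided permutation test with 100000 resamples, 27 of 28 pairs had a Benjamini-Hochberg adjusted p under 0.05 for Pearson's r and 26 for Spearman's rho. After the group means were subtracted, r ran from 0.39 to 0.85 and 23 of 28 pairs kept an adjusted p under 0.05, so that the relation held within groups. The arrays share slides, array scaling and tissue makeup, and genes of a pair are not independent of the other pairs.

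Ret, the receptor of GDNF family ligands, and Vip gave the closest pair, with r = 0.83 and rho = 0.86 (adjusted p = 4e-05 and 5.6e-05). It was 0.84 within groups, 0.79 without the 2 arrays farthest from the median of Ret, and 0.87 over the 17 arrays that do not stand apart. Vip with Gfap had r = 0.79 (rho = 0.76), and Ret with Gfap 0.76 (rho = 0.68). The glial genes Sox10 and S100b had r = 0.75 and rho = 0.73, with 0.80 within groups and 0.77 over the 17 arrays. S100b and Gfap, both glial markers, were less close, with r = 0.43 and rho = 0.42 (adjusted p = 0.018 and 0.025), and 0.33 over the 17 arrays (adjusted p = 0.23). A difference between correlations was not tested.

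Some relations of Nos1 were weaker without single arrays. Leaving out the 2 arrays farthest from the median of the first gene took Ret with Nos1 from 0.64 to 0.48, Elavl4 with Nos1 from 0.48 to 0.34 and Nos1 with S100b from 0.36 to 0.26. CRC 7 days male 2, where Nos1 was -3.98 and Ret -0.93, was among the arrays left out each time, and the last 2 of these pairs then had a permutation p of 0.072 and 0.18. Uchl1 with Nos1, without the arrays farthest for Uchl1, went from 0.42 to 0.60. Over the 17 arrays that do not stand apart, the median r of the pairs was 0.62 and 18 of 28 had an adjusted p under 0.05. Of the 10 pairs that did not, 5 held Nos1, with r between 0.00 and 0.48.

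**Figure D3:**
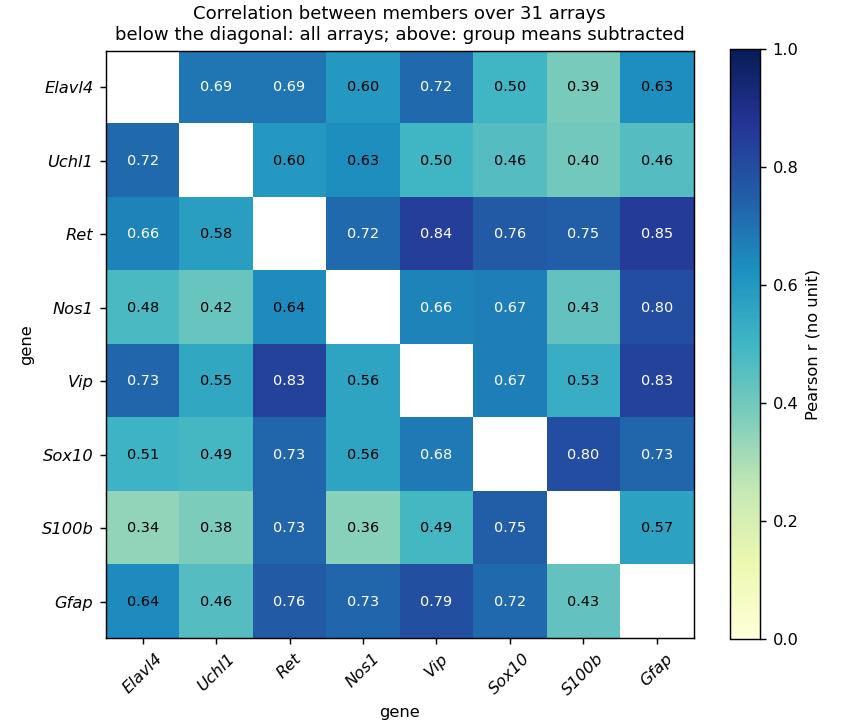
Pearson's r (colour and number, no unit) for the 28 pairs of the 8 genes over 31 arrays, with genes on both axes. Cells below the diagonal use all arrays and run from 0.34 to 0.83, and cells above it use values with the group means subtracted and run from 0.39 to 0.85.

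The probes of Nos1 and Uchl1 differed in how they followed the other members. The Nos1 probe shown above, A_55_P2133795, had r = 0.85 with the median of the other 7 members, while A_55_P2073915 had r = 0.23, and the correlation between both probes was 0.49. The first was well above background on 17 of 31 arrays and the second on all 31. Uchl1 probe A_55_P2738927 had r = 0.85 with the other members and was above background on all arrays. A_55_P2721995, on the other Uchl1 transcript, had r = 0.08 and was above background on 16 arrays, and both Uchl1 probes correlated at 0.12. The gene values above average each pair. With only the brightest probe of each gene, Uchl1 with Ret rose from 0.58 to 0.84, and Elavl4 with Nos1 went from 0.48 to 0.01. Nos1 then had r between 0.01 and 0.24 with all other 7 members.

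The 2 Nos1 probes also parted in the E171 comparison after 14 days. On A_55_P2073915 the CRC arrays stood at -5.02, -5.13, -4.70 and -5.66 and the CRC + E171 arrays at -4.58, -3.84, -4.49 and -3.85, with no overlap. The log2 fold change of this probe was 0.94 (SE 0.26, limma adjusted p over all probes = 0.475), and that of A_55_P2133795 was 0.00 (SE 0.45). At 14 days A_55_P2133795 was above background on 3 of 4 CRC and 2 of 4 CRC + E171 arrays. Dim signal thus limits what its 0.00 can show. The difference of 7 from 2 days is given in the order A_55_P2073915 and A_55_P2133795, of which the second was above background on 2 of 4 arrays in CRC 2 days, CRC 7 days and CRC + E171 2 days and on 4 of 4 in CRC + E171 7 days. It was 0.66 (SE 0.26) and 0.83 (SE 0.45) in CRC, and 0.72 (SE 0.26) and 0.73 (SE 0.45) in CRC + E171. For Gfap, whose probes correlated at 0.77, the probe at chr11:102748864-102748923 had a log2 fold change of -0.85 (SE 0.40, limma adjusted p over all probes = 0.601) in E171 against CRC after 14 days and -0.91 (SE 0.43, adjusted p = 0.779) after 21 days. The other Gfap probe had -0.43 (SE 0.76) and -1.23 (SE 0.82).

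**Figure D4:**
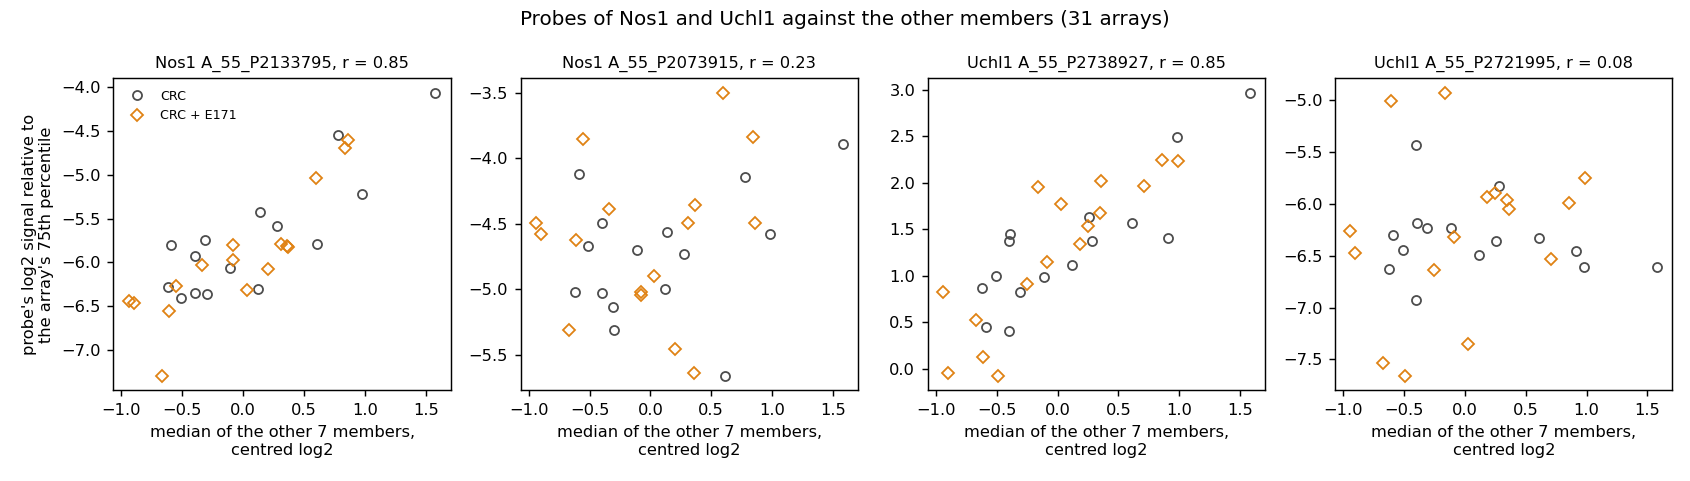
Log2 signal of the probes of Nos1 and Uchl1 (y axis, relative to the 75th percentile of each array) against the median of the other 7 members (x axis, log2, centred on each gene's mean) in 31 arrays, circles for CRC and diamonds for CRC + E171. Nos1 A_55_P2133795 and Uchl1 A_55_P2738927 rise with the other members (r = 0.85 each) and their partner probes do not (r = 0.23 and 0.08).

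The members were next set against smooth muscle, since the ganglia lie between the muscle layers. The list of 12 smooth muscle genes was used, and 8 relations were computed. Sox10 had r = 0.75 and rho = 0.75 (permutation adjusted p = 8e-05 and 4e-05) and S100b r = 0.72 and rho = 0.72 (the same adjusted p). Within groups these were 0.76 and 0.77, and without the arrays farthest from the median, CRC 21 days female 1 and CRC + E171 14 days male 1, they were 0.69 and 0.65. Over the 17 arrays that do not stand apart they were 0.86 and 0.88.

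Ret had r = 0.56 with the smooth muscle list (rho = 0.55, adjusted p = 0.0029) and Vip r = 0.46 (rho = 0.62, adjusted p = 0.019). Within groups Ret kept an adjusted p of 0.022 and Vip had 0.084. Gfap had r = 0.36 (adjusted p = 0.069), Uchl1 0.22 (0.31), Elavl4 0.16 (0.41) and Nos1 0.15 (0.41), while Uchl1 had 0.54 over the 17 arrays that do not stand apart (permutation adjusted p = 0.043). The neuronal genes Elavl4 and Uchl1 had r = 0.72 with each other (0.69 within groups). CRC 7 days male 2 held the highest Elavl4, Vip and Ret of the series beside a smooth muscle value of -0.58.

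**Figure D5:**
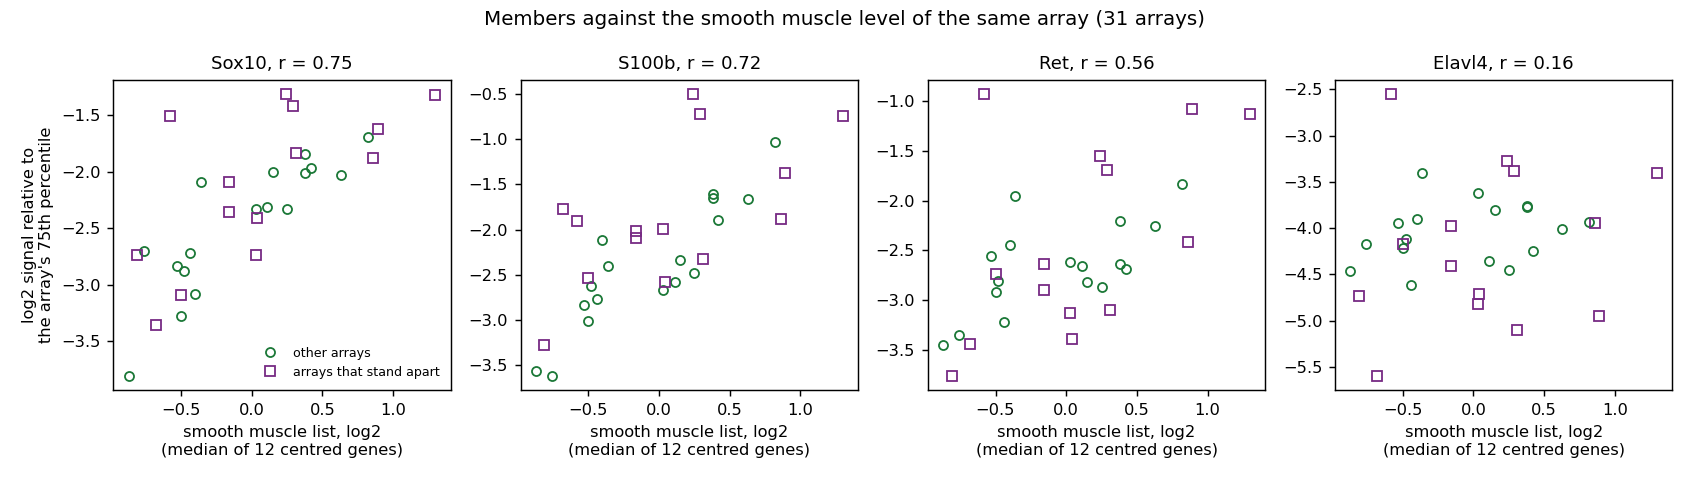
Log2 signal (y axis, relative to the 75th percentile of each array) of Sox10, S100b, Ret and Elavl4 against the smooth muscle list value of the same array (x axis, log2, median of 12 centred genes) in 31 arrays. Squares are the 14 arrays that stand apart and circles the other 17, and r falls from 0.75 for Sox10 to 0.16 for Elavl4.

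Other lists were compared as a description, without a test. Across 31 arrays, the epithelium list had r = -0.58 with Ret, -0.51 with Nos1, -0.47 with Vip and -0.44 with Gfap, and 0.01 with Elavl4 and -0.05 with Uchl1. The neutrophil list had r = 0.54 with Nos1, 0.50 with Gfap, 0.49 with Vip and 0.41 with Ret. It had 0.35 with Sox10, 0.06 with Elavl4 and S100b and -0.04 with Uchl1. The highest neutrophil values, 4.31 and 6.12, were on CRC 7 days male 1 and male 2. Of further lists, the strongest single values were 0.61 for interstitial cells of Cajal with Elavl4 and 0.56 for fibroblast with Sox10. For adipocyte this was 0.54 with Uchl1 and for lymphoid -0.55 with S100b. The enteroendocrine list, whose cells share some genes with neurons, had r = 0.45 with Elavl4 and 0.40 with Uchl1 and between -0.26 and -0.01 with the other 6 genes.

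The genes most like each member over the 31 arrays were taken from 17147 named genes. Elavl4 was closest to Syn1, a synaptic vesicle protein (r = 0.95), then to Slc45a1, Scg2, Tmem130 and Rtn1 (0.93 to 0.91). Ret was closest to Penk, which encodes enkephalins (0.92), then to Sphkap, Asic2, Phox2a and Gap43, the last a growth cone protein (0.91 to 0.90). Vip was closest to Rgs4 (0.90), then to Slc5a7, the choline transporter (0.86), Penk, Phox2a and Syt4 (0.86 to 0.85). Uchl1 had Jph3, Mapk8ip2, Fbll1, Tlx2 and Hs3st2 (0.87 to 0.85).

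Among the glial members, S100b was closest to Tmprss5, Pgbd5, Kcna6, Cmtm5 and Tafa5 (0.92 to 0.90), and Sox10 to Dlgap1, Prune2, Faxc, Wasf1 and Scube2 (0.91 to 0.88). Gfap had Vgf, Armcx2, Sgip1, Syt4 and Togaram2 (0.84 to 0.79). Nos1 was closest to Mvb12b, Col23a1, Fgf13, Sgip1 and Tbc1d9 (0.86 to 0.79). Penk, Phox2a and Syt4 stood among the nearest genes of 2 members each, as did Sgip1, and none of the nearest genes was on the enteric glia list.

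The wider gene lists were counted by the same DEG rule in the E171 comparisons, where the shares of all genes were 1.72%, 12.4%, 6.34% and 2.67% in order of the days. Of 50 tested enteric neuron genes, 1 was up-regulated and 0 down-regulated after 2 days (Calb1, a calcium-binding protein, 1.21, SE 0.34, and 0.70 without the arrays that stand apart). After 7 days 2 were up-regulated and 3 down-regulated, the latter the neuropeptides Calca (-2.81), Cartpt (-2.15) and Npy (-2.13), and Ddc (1.57) and Snap25 (0.79) were higher. Calca and Cartpt were no longer DEG without CRC 7 days male 1 (-2.39 and -1.51) or male 2 (-1.69 and -1.35), nor Npy without male 2 (-1.36), nor Ddc without male 1 (0.58). Calca (-2.54) and Npy (-1.62) were also no DEG without CRC + E171 7 days female 2. Array weights ended the calls of Calca (-0.86), Cartpt (-0.62), Npy (-0.94) and Ddc (0.27), fitting only the 2 groups those of Calca, Cartpt and Ddc, and no filter on dim probes that of Calca (-1.78). In the same 7-day comparison the epithelium list had 8 of 8 genes up-regulated (median 1.22), the enteroendocrine list 3 of 9 up-regulated (0.73), the pancreatic acinar list 3 of 8 down-regulated (-4.93), the neutrophil list 3 of 7 (-2.98) and the skeletal muscle list 8 of 10 (-2.48), while the squamous list had 0 of 6 called (-3.24), and their part in the neuron and glia calls was not tested. Only Tac1, the substance P precursor, was called after 14 days (-1.19, SE 0.46), and only Ache, acetylcholinesterase, after 21 days (-0.79, SE 0.29). In the 14-day comparison the posterior Hox list had 4 of 6 genes down-regulated (median -3.40), the enteroendocrine list 2 of 9 (-0.73) and the smooth muscle list 1 of 12 (-0.53). The lymphoid list (-1.21) and the squamous list (0.82) had 0 called, and the part of these lists was not tested. Tac1 was no DEG without CRC + E171 14 days male 2 (-1.01) or CRC 14 days male 2 (-0.99), nor Ache without CRC 21 days female 1 (-0.51). Without the arrays that stand apart neither was called, with Tac1 at -0.93 and Ache at -0.40. Over all alternatives run, Tac1 held in 14 of 22 (-1.51 to -0.68) and Ache in 17 of 21 (-1.04 to -0.40). The list's median was 0.08, 0.14, -0.29 and -0.28 at these days, beside 0.06, -0.01, 0.01 and 0.02 over all genes. No adjusted p of these genes was under 0.05.

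Of 24 tested enteric glia genes, 0 were called after 2 and 14 days, beside 1.72% and 6.34% of all genes. After 7 days 2 of the 24 were up and 3 down, beside 12.4% of all genes, and after 21 days 0 were up and 2 down, beside 2.67%. After 7 days Erbb3 (1.14), a receptor of neuregulin that epithelium also carries, and L1cam (0.92) were up-regulated, and Artn (-1.14), Cryab (-0.99) and Matn2 (-0.97) were down-regulated. After 21 days Foxd3, a neural crest transcription factor (-1.38, SE 0.56), and Col28a1 (-0.76, SE 0.35) were down-regulated, and 4 of 24 genes were higher. Without CRC 21 days female 1 neither was a DEG (-1.22 and -0.60), and without CRC + E171 21 days male 1 neither was (-1.23 and -0.73). Without the arrays that stand apart Foxd3 was a DEG at -1.35 and Col28a1 was not, at -0.33. Foxd3 held in 19 of 21 alternatives and Col28a1 in 13 of 21. Of 13 signalling partners, Vipr1, a receptor of VIP (0.98, SE 0.42), was up-regulated and Nos3, the endothelial nitric oxide synthase (-1.25, SE 0.45), down-regulated after 7 days, and 0 at the other days. Nos3 was no DEG without CRC 7 days male 2 (-0.72), with array weights (-0.44) or with only the 2 groups in the fit.

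Over the days in CRC, the shares of all genes called were 13.4% after 7 days, 2.55% after 14 days and 3.59% after 21 days. After 7 days the lists had 7 up and 1 down of 50 neuron genes, 7 up and 2 down of 24 glia genes and 4 up and 1 down of 13 signalling partners. In the same comparison the skeletal muscle list had 8 of 10 genes up-regulated (median 2.62), the fibroblast list 6 of 7 (0.87), the neutrophil list 3 of 7 (2.71) and the squamous list 1 of 6 (3.14), the epithelium list 8 of 8 down-regulated (-1.25), and the pancreatic acinar list 0 of 8 called (2.73), and their part was not tested. Cartpt (2.59), Calca (2.57) and Pvalb (2.28) led the neuron list and Gpm6b (1.34), Artn (1.31) and Scn7a (1.26) the glia list. Calca and Gpm6b were no longer DEG without CRC 7 days male 1 (2.15 and 1.09) or male 2 (1.45 and 0.62), nor Pvalb and Ddc without male 1 (0.66 and -0.76). Calca was also no DEG without CRC 2 days male 1 (2.35) or female 2 (2.32) or with the smooth muscle covariate (2.40), and Gpm6b without CRC 2 days male 1 (1.09) or with no filter on dim probes (0.51). Array weights ended the calls of Calca (0.49), Cartpt (1.03), Ddc (-0.27) and Gpm6b (0.00). Ddc (-1.76), Erbb3 (-1.25), L1cam (-0.84) and Vipr1 (-1.11) were down-regulated on the same arrays, where the epithelium list ran from -3.22 to 0.14 and the neutrophil list from -0.60 to 6.12. These CRC 7 days arrays are also the controls of the 7-day E171 comparison, so the 2 sets of values are not independent. After 14 days 2 of 50 neuron genes, 2 of 24 glia genes and 0 of 13 signalling partners were up-regulated, and 0 were down-regulated. The fibroblast list had 4 of 7 genes up-regulated there (median 0.67), and its part was not tested. After 21 days 4 of 24 glia genes were up-regulated, among them Foxd3 (1.71), Cdh19 (1.35) and Scn7a (1.13). Of 50 neuron genes only Stmn2 (1.14) was up-regulated, and 0 genes of the lists were down-regulated. Without CRC 21 days female 1, Cdh19, Scn7a and Stmn2 were at 0.84, 0.82 and 0.83 and no DEG, nor were they with the smooth muscle covariate (0.52, 0.51 and 0.74), while Foxd3 was a DEG in both (1.56 and 0.88). Leaving out CRC 21 days male 1 or CRC 2 days female 1 or female 2 also ended the calls of Cdh19, Scn7a and Stmn2. Cdh19 was no DEG without the arrays that stand apart (1.08). Over all alternatives run, Foxd3 held in 20 of 20, Cdh19 in 14 of 20, Stmn2 in 12 of 20 and Scn7a in 11 of 19.

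In CRC + E171, Map2, a dendritic protein, was down-regulated against 2 days after 14 days (-1.55, SE 0.39) and 21 days (-1.01, SE 0.39), and Chat, which makes acetylcholine, after 14 days (-0.85, SE 0.23). None of these had an adjusted p under 0.05. Without the arrays that stand apart Map2 was -0.99 and -0.91 and no DEG. Chat was no DEG with normexp (-0.30), no filter on dim probes (-0.27), a stricter filter (-0.42) or the brightest probe (-0.93). Beside 3.27%, 9.64% and 7.39% of all genes, the glia list had 1 gene up after 7 days, 0 called after 14 days and 1 down after 21 days (Cnp, -0.67, SE 0.23), which was no DEG without the arrays that stand apart (-0.59). Over 21 alternatives, Map2 held in 20 after 14 days and in 12 after 21 days, Chat in 17 and Cnp in 15.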

How the data were processed

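RNA of 31 distal colon samples was labelled with Cy3 and hybridised to one-colour Agilent mouse arrays, with 1 array per mouse. The deposited intensity values are processed signals of Feature Extraction 10.7.3.1 (background-subtracted, per the file headers), beside mean and background intensity and flags. The authors also deposited a log2 table of 42568 probes, whose normalization is not given in the sources used here and which served as an alternative. The study's methods describe flagging of poor spots, removal of missing or dim spots, imputation from nearest neighbours and merging of spots by probe, without saying which of these steps the table holds.

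Each array's log2 intensity was taken relative to its 75th percentile. A probe was kept if, in at least 1 group, 60% of arrays were well above background without outlier flags and the mean log2 signal was 4 or more, which kept 42787 of 56605 probes. Of these, 34344 were named through RefSeq accessions or symbols, and probes of a gene were averaged to 19797 genes. Array number limits the precision. Limma 3.58.1 (R 4.3.3) was fitted to 8 groups with a pooled spread, and the code was tested on simulated data. DEG needed a 1.5-fold change and p under 0.05. The fold was read as linear. Female against male added sex to the groups. The arrays lay on 8 slides scanned on 3 days. Each slide held CRC arrays of 1 day and CRC + E171 arrays of another. Among the E171 differences only the mean over the 4 days was thus balanced over slides, but for the missing CRC 21 days array.

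Named genes were the 8 members in every comparison, from the lists the DEG with the widest log2 fold changes (at most 5 per comparison, with a few more named to complete a count), and the 5 genes most correlated with each member. Some genes of the lists are not reported here. The members and lists were chosen with earlier results of these data known. Alternatives covered scaling, background, filters, probe choice, slide, scan day, sex, block, weights, muscle level and left-out arrays.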

Additional observations from a re-analysis of the deposited data

Results flagged for a closer look

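In 56 group values of 4 arrays, 3 had an array far from the other 3 by Dixon's criterion, and chance alone marks about 1 in 20 such groups. Sox10 in CRC + E171 2 days was -2.74 on female 2 against -2.0 to -1.88 on the others. That array also had a high pancreatic acinar list. S100b in CRC 14 days was -1.03 on male 2 against -2.77 to -2.48 on the others, and this is the array whose Xist goes against its label. Gfap in CRC 14 days was -4.92 on female 1 against -4.00 to -3.81 on the others.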

How the results depend on the processing

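The counts below are members that were DEG. The share of all genes called under each setting is not given here, so a change of a count is not a result about the members. For E171 against CRC, at 7 days the count was 0 and became 1 with array weights, and at 14 days 0 became 1 with a stricter filter, 2 with the brightest probe and 1 without the arrays that stand apart. At 21 days 0 became 1 with the brightest probe, the sex covariate, the replicate block and only the 2 groups in the fit. In CRC, 7 against 2 days went from 1 to 0 with array weights (with normexp the count stayed 1, but Nos1 at 0.51 was lost and Ret at 0.87 became a DEG), and 21 against 2 days from 0 to 1 with the replicate block and 2 with array weights. In CRC + E171, 7 against 2 days went from 1 to 0 with normexp, array weights or without the arrays that stand apart. There, 14 against 2 days went from 0 to 1 with quantile normalization, a stricter filter or the authors' values, and to 2 with the brightest probe or without the arrays that stand apart, and 21 against 2 days from 0 to 1 with array weights. Between the sexes, 2 became 1 with normexp, the brightest probe, array weights or the muscle covariate, and 4 without the arrays that stand apart. The causes were not tested.

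Leaving out single arrays gave 0 to 1 in the 7-day E171 comparison (1 without CRC 7 days male 2, where Elavl4 was 0.94), 0 to 2 in CRC 7 against 2 days (2 without CRC 7 days female 1 or female 2) and 0 to 2 in CRC 21 against 2 days. It gave 0 to 1 in CRC + E171 7 against 2 days, 0 to 2 in 14 against 2 days (2 without CRC + E171 14 days female 2) and 1 to 2 between the sexes. The replicate block used the labelled sex and replicate number together, which gives 4 sets of arrays. These sets did not meet the criterion for pairs, since correlations between arrays of different groups in the same set ran from -0.41 to 0.62 (mean 0.0618, 105 pairs), but 16 of 31 arrays correlated best with their own set, which is a hint from the data and not the design, and which cannot be told apart from a shared sex. The block changed no count other than those above.

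With the smooth muscle list, Gfap had r = 0.42 in the authors' values, Nos1 -0.15 with the brightest probe and Uchl1 0.54 without the arrays that stand apart. The last 2 of these settings, for correlations, were chosen after seeing the data. Gpm6b in CRC 7 against 2 days was 0.00 with array weights, against 1.34. Over the single members and comparisons under settings other than left-out arrays, 1421 values kept direction and side of the thresholds, 91 changed sign without being DEG, 23 became DEG and 9 were lost. CRC 7 days cannot be fitted without the arrays that stand apart, and CRC + E171 14 days then has 1 array. Dim probes limit Nos1 and Uchl1.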
